A study of Saccharomyces cerevisiae with 15 samples.

Results

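The question was whether 5 μM melatonin moved yeast transcripts by another amount in cells under oxidative stress than in cells without it. For every gene, the melatonin effect with stress (5MelH minus H) was set against the melatonin effect without stress (5Mel minus Control), so that the difference was (5MelH minus H) minus (5Mel minus Control). It used 12 of the 15 arrays of the series, 3 in each of the 4 groups. The groups were Control (0 μM melatonin, 0 mM H2O2), 5Mel (5 μM, 0 mM), H (0 μM, 2 mM) and 5MelH (5 μM, 2 mM). All arrays held RNA of the *Saccharomyces cerevisiae* strain QA23, a single commercial wine yeast, from cultures in YPD, which is rich medium with glucose. Melatonin was in the medium during growth, H2O2 was added for 1 h once the cultures were in exponential phase, and the cells of all groups were harvested at that point. The remaining 3 arrays, 25MelH, received 25 μM melatonin and 2 mM H2O2 and had no unstressed partner at that dose. The study describes the arrays of a group as biological replicates.

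Melatonin is a tryptophan-derived indolamine that yeast can make. Hydrogen peroxide sets off a broad response in yeast: peroxide-detoxifying enzymes controlled by Yap1 and Skn7 are induced, general stress genes follow Msn2 and Msn4, and growth-related transcripts are reduced. Oxygen is read in yeast largely through heme and sterols, whose synthesis needs it. With heme present, Hap1 and the Hap2/3/4/5 complex maintain genes of the respiratory chain and Rox1 represses a set of hypoxic genes, while Upc2 activates sterol synthesis and the DAN/TIR cell wall genes when sterols run low. Copper is handled by a matching pair of regulators: Mac1 turns on uptake when copper is scarce and Cup2 turns on metallothionein when it is plentiful.

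Levels are log2 signals relative to the 75th percentile of the same array, so a level of 0 is that percentile and a difference of 1 is a doubling. Differences are log2 values with their standard error (SE) from limma, and a gene was called when its p after Benjamini-Hochberg adjustment over all 6224 genes was under 0.05. The share of genes above background (the scanner software's well-above-background call) was 86.3% to 95.3% per array, and Pearson's r between arrays of a group was 0.992 to 0.996, taken across genes, so it is a description. The SD of negative control spots was 26.1 to 63.6 intensity units on the 5Mel arrays and 1.12 to 17.2 on the other 9. The arrays sat on 2 slides: slide 1 carried 2 Control, 1 5Mel, 1 H and 2 5MelH arrays, and slide 2 the others. Groups follow the scanner tables of the samples. In a second deposited file, a matrix of the same arrays, the columns named 5Mel, H and 5MelH hold the values of the scanner tables of 5MelH, 5Mel and H, so the files contradict each other for these 9 arrays. *SRX1* (sulfiredoxin), a gene that peroxide induces, was at −5.82 to −4.83 in the scanner tables of Control and 5Mel and at −2.47 to −1.59 in those of H and 5MelH, which fits the stress labels of the scanner tables and not those of the matrix. No such marker was used for melatonin, so its labels within H and 5MelH were not checked.

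In the fit without a block, the melatonin effect differed with stress for 21 genes. Arrays of the same number deviated together within a stress level, where those numbered 1 and those numbered 3 also shared a slide. With the replicate number as a block within each stress level 0 genes were called (2 with 1 block per number over all groups). Every adjusted p given below for a called gene is therefore from the fit without the block. Of the 21, 9 had a higher effect with stress than without it (0.145% of genes tested) and 12 a lower one (0.193%). Without stress, 71 genes were higher in 5Mel than in Control (1.14%) and 61 lower (0.980%). With stress, 0 genes were called higher in 5MelH than in H (0%) and 0 lower (0%), while 181 (2.91%) and 171 (2.75%) had an unadjusted limma p under 0.05. At this unadjusted p the difference was higher for 352 genes (5.66%) and lower for 244 (3.92%), and the effect without stress was higher for 455 (7.31%) and lower for 611 (9.82%). Each of the 21 called genes was well above background on all 12 arrays.

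The called genes had large effects without stress and small ones with it. All 21 genes were also called in 5Mel against Control, with effects of −1.22 to −0.40 for the 9 genes and 0.53 to 1.34 for the 12, and 0 of them were called in 5MelH against H. Their effects under stress ran from −0.24 to 0.37, with a median of 0.01. In 7 of the 21 the effect under stress had an unadjusted limma p under 0.05, beside 2.91% of all genes higher and 2.75% lower. The smallest adjusted p of these 7 was 0.801. The 3 5Mel arrays did not overlap with the 3 Control arrays in any of the 21 genes, against 7.97% of all genes higher and 9.90% lower without overlap. The 5MelH and H arrays did not overlap in 13 of the 21, against 12.7% of all genes higher and 8.79% lower. The 21 genes were chosen on a difference that contains these same arrays. Their calls, unadjusted p and overlaps in either pair of groups therefore describe them and are not separate support.

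**Figure D1:**
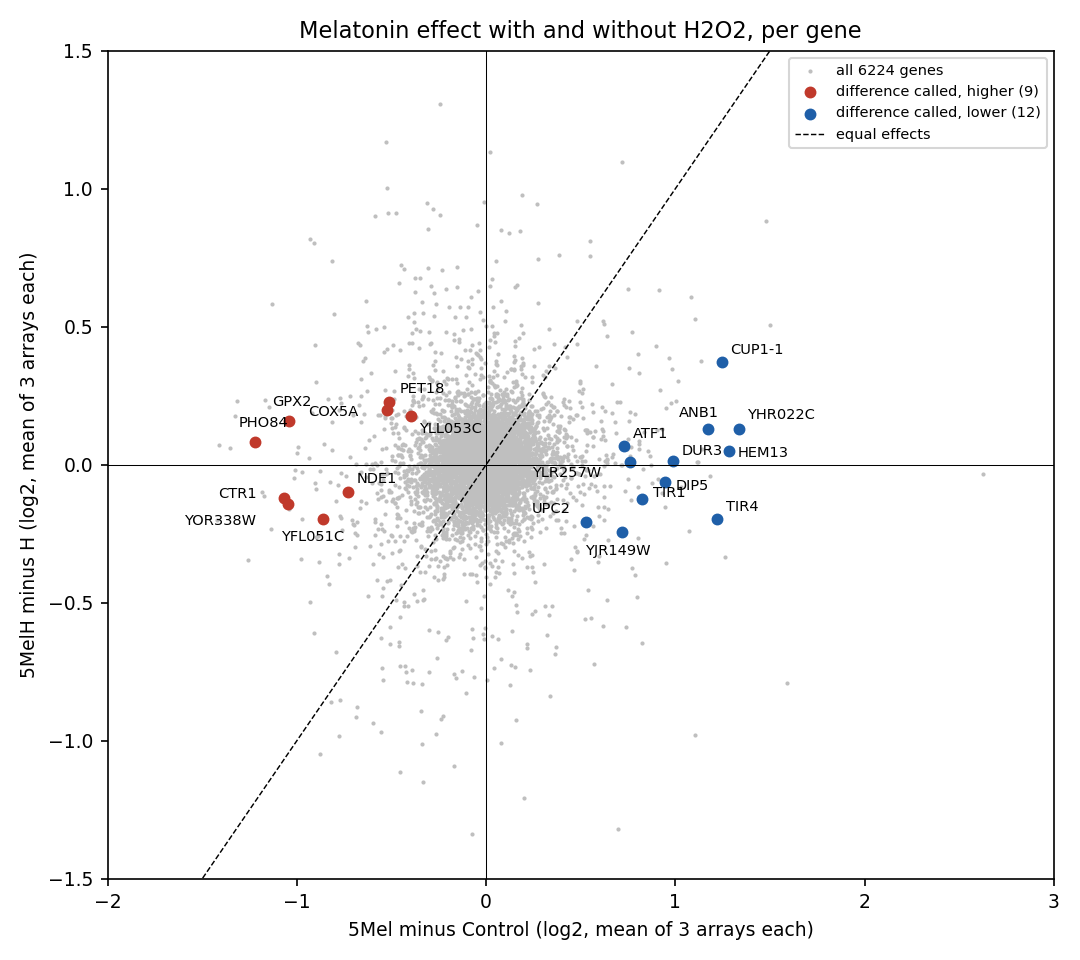
Melatonin effect without stress (x axis, 5Mel minus Control, log2) against the effect with stress (y axis, 5MelH minus H, log2) for 6224 genes as grey points, each the difference of the means of 3 arrays. The 9 genes with a called higher difference (red) and the 12 with a called lower one (blue) lie far from 0 along the x axis and between −0.24 and 0.37 along the y axis; genes on the dashed line would have equal effects.

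Across all genes the SD of the effect was 0.25 without stress and 0.18 with it, and the medians were −0.01 and 0.01. The effects have no array in common, and Pearson's r between them over 6224 genes was 0.083 (Spearman's rho 0.11), given as a description since genes share arrays. The genes called in unstressed cells leaned the same way in stressed ones, with small median effects. The 71 genes called higher had a median effect of 0.66 without stress and 0.04 with it, and 45 of them (63.4%) were above 0 with stress, beside 54.1% of all genes. The 61 genes called lower had medians of −0.52 and −0.06, and 19 of them (31.1%) were above 0. Counted against the all-gene median of the stress effect, 41 of the 71 (57.7%) and 17 of the 61 (27.9%) were above it. With the slide as a block, 38 of 65 genes called higher (58.5%) and 23 of 58 called lower (39.7%) were above that median.

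Of the 12 genes with a called lower difference, *HEM13*, *ANB1*, *TIR4*, *TIR1* and *UPC2* belong to the heme, hypoxic and DAN/TIR lists. *HEM13*, which encodes coproporphyrinogen oxidase, the oxygen-requiring step of heme synthesis, was measured at 1.29, 1.24 and 1.79 in Control, 2.64, 2.60 and 2.94 in 5Mel, −0.84, −0.82 and −0.85 in H, and −0.76, −0.76 and −0.83 in 5MelH. All 5Mel arrays lay above all Control arrays, the 6 stressed arrays lay within 0.09 of each other on the log2 scale, and the stressed levels were below every unstressed one. The melatonin effect was 1.28 without stress (SE 0.14) and 0.05 with stress (95% interval −0.25 to 0.35), a difference of −1.23 (SE 0.19, limma, Benjamini-Hochberg adjusted p = 0.0302). *ANB1*, the hypoxic form of the translation factor eIF5A, stood at −0.04, −0.17 and 0.14 in Control, 1.08, 1.21 and 1.14 in 5Mel, −0.68, −0.89 and −0.75 in H, and −0.67, −0.55 and −0.71 in 5MelH. Its 5Mel arrays were again the highest of the 12, and its H and 5MelH arrays overlapped. The difference was −1.04 (SE 0.13, adjusted p = 0.0165 in limma).

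*TIR4* and *TIR1*, cell wall mannoproteins that are made in the cold and without oxygen, were also highest in 5Mel. *TIR4* was at −3.30, −3.68 and −3.29 in Control, −2.22, −2.18 and −2.20 in 5Mel, −4.95, −4.79 and −4.79 in H, and −5.33, −4.58 and −5.20 in 5MelH. Its difference of −1.42 (SE 0.25, adjusted p = 0.0460 in limma) was the most negative among called genes, and 5MelH replicate 2 lay above all H arrays while the other 5MelH arrays lay below them. *TIR1* was at 2.87, 2.95 and 3.05 in Control, 3.90, 3.94 and 3.51 in 5Mel, 2.47, 2.49 and 2.38 in H, and 2.35, 2.41 and 2.21 in 5MelH, a difference of −0.95 (SE 0.15, adjusted p = 0.0330 in limma). *UPC2*, the sterol regulator that activates the DAN/TIR genes, was at −3.02, −3.03 and −2.89 in Control, −2.49, −2.37 and −2.50 in 5Mel, −3.51, −3.51 and −3.39 in H, and −3.75, −3.61 and −3.67 in 5MelH. Here the effects had opposite signs, 0.53 without stress and −0.21 with it (95% interval −0.36 to −0.05), and neither pair of groups overlapped. The difference was −0.73 (SE 0.10, adjusted p = 0.0177 in limma), although the stress effect on its own was not called (adjusted p = 0.839).

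*DAN1*, the anaerobic mannoprotein of the same family, could not be compared under stress. Its probe was well above background on the 3 5Mel arrays and on 0 of the other 9. In 5Mel it was at −5.94, −6.44 and −6.45, against a measured mean of −8.91 in Control. A ratio of 3.5-fold over Control came from counting each Control array with its detection limit or with its own signal if that was brighter. That limit was the dimmest probe well above background on the Control array. It leaves out the negative control SD of 26.1 to 63.6 on the 5Mel arrays, so the ratio is not a lower bound. Its fitted difference of −2.66 was not called (adjusted p = 0.0858 in limma), and with normexp background correction it was −1.08.

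**Figure D2:**
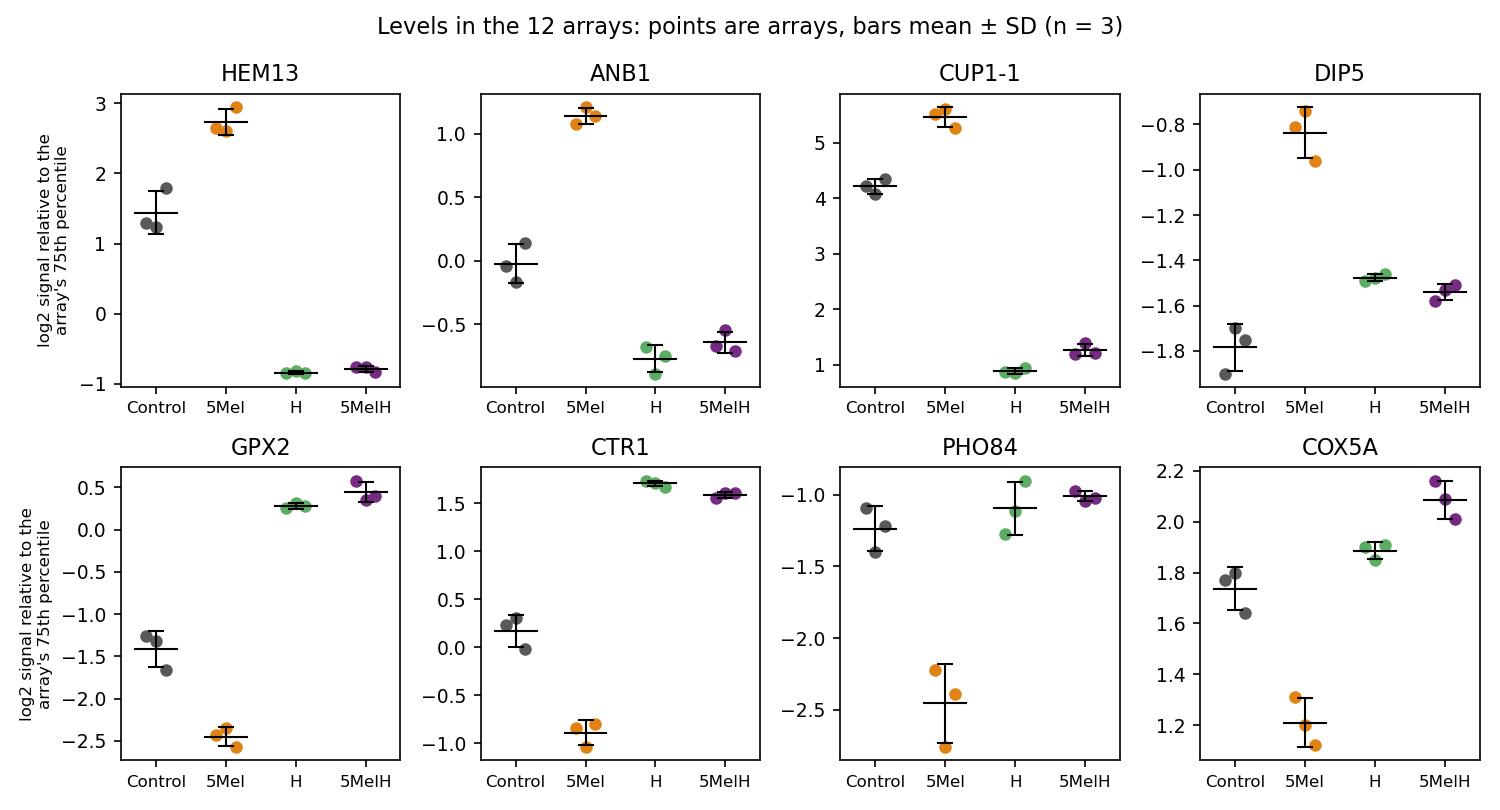
Levels of *HEM13*, *ANB1*, *CUP1-1*, *DIP5*, *GPX2*, *CTR1*, *PHO84* and *COX5A* (log2 signal relative to the array's 75th percentile, a separate y axis for each gene) in Control, 5Mel, H and 5MelH, with a point for each array and the mean ± SD of 3 arrays. In each gene the 5Mel arrays stand apart from Control, and the means of H and 5MelH lie closer together than those of Control and 5Mel. The H and 5MelH arrays overlap in *HEM13*, *ANB1* and *PHO84* and not in the other genes.

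Of the transporters, *DIP5* and *DUR3* were called lower. *DIP5*, the permease for glutamate and aspartate, had the smallest p of all genes. It was at −1.90, −1.70 and −1.75 in Control, −0.81, −0.74 and −0.96 in 5Mel, −1.49, −1.48 and −1.46 in H, and −1.58, −1.53 and −1.51 in 5MelH. Unlike the genes above, its stressed levels lay between those of Control and 5Mel. The difference was −1.01 (SE 0.10, adjusted p = 0.00876 in limma). *DUR3*, which takes up urea and polyamines, was at −2.94, −2.98 and −3.01 in Control, −2.23, −1.93 and −1.81 in 5Mel, −4.21, −4.18 and −4.14 in H, and −4.16, −4.09 and −4.25 in 5MelH. The 5Mel arrays were the highest of the 12 and the H and 5MelH arrays overlapped, with a difference of −0.97 (SE 0.14, adjusted p = 0.0177 in limma).

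Of the 27 amino acid, peptide and nitrogen permeases listed, 9 had an unadjusted p under 0.05, all lower, beside 3.92% of all genes. The called *DIP5* and *DUR3* are 2 of these 9. The list's median difference was −0.17, with median effects of 0.10 without stress and −0.03 with it. *AGP1*, a broad amino acid permease, was at 1.98, 1.97 and 1.91 in Control and 2.28, 2.45 and 2.60 in 5Mel, and at 0.48 to 0.67 in the 6 stressed arrays. *MEP1*, an ammonium permease, had a difference of −0.61 (SE 0.16). Neither was called (adjusted p = 0.165 and 0.219 in limma).

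Copper genes were called in both directions. *CUP1-1*, a metallothionein that binds copper, was at 4.22, 4.07 and 4.34 in Control, 5.51, 5.60 and 5.26 in 5Mel, 0.87, 0.86 and 0.95 in H, and 1.20, 1.39 and 1.22 in 5MelH. It was higher with melatonin at both stress levels without overlap of the arrays, by 1.25 (SE 0.10) without stress and by 0.37 (95% interval 0.15 to 0.59) with it, though only the first was called (adjusted p = 0.801 for the second in limma). The difference was −0.87 (SE 0.14, adjusted p = 0.0330). The near-identical copy *CUP1-2* had a difference of −0.76 that was not called (adjusted p = 0.0666), and probes of copies this alike may share signal, so both values are uncertain as values of 1 gene.

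*CTR1*, the high-affinity copper transporter of the plasma membrane, went the other way. Its levels were 0.23, 0.30 and −0.02 in Control, −0.84, −1.04 and −0.80 in 5Mel, 1.73, 1.71 and 1.67 in H, and 1.55, 1.60 and 1.60 in 5MelH. The 5Mel arrays were the lowest of the 12 and the 5MelH arrays lay just below those of H. The effect was −1.06 without stress and −0.12 with it (95% interval −0.32 to 0.08), a difference of 0.94 (SE 0.13, adjusted p = 0.0177 in limma). *FRE1*, a surface reductase of iron and copper, was at −0.32, −0.20 and −0.65 in Control, −1.13, −1.29 and −1.30 in 5Mel, and 1.65 to 1.96 in the stressed arrays, with a difference of 0.93 that was not called (adjusted p = 0.0666). In the copper list, 5 of 12 genes were higher at an unadjusted p under 0.05, beside 5.66% of all genes, and 2 were lower, the metallothionein copies. Besides *CTR1* and *FRE1* the 5 were *CTR3*, *FRE7* and *ATX1*, which are named because of their values and had differences of 1.48, 0.60 and 0.37.

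*GPX2* and *PHO84* had the largest positive differences among called genes. *GPX2*, a glutathione peroxidase that Yap1 and Skn7 control, was at −1.26, −1.32 and −1.66 in Control, −2.43, −2.35 and −2.57 in 5Mel, 0.25, 0.32 and 0.28 in H, and 0.58, 0.35 and 0.40 in 5MelH. The effect was −1.04 without stress (SE 0.11) and 0.16 with it (95% interval −0.08 to 0.40), the arrays overlapped in neither comparison, and the difference was 1.20 (SE 0.15, adjusted p = 0.0177 in limma). *PHO84*, the high-affinity phosphate transporter, was at −1.09, −1.40 and −1.22 in Control, −2.22, −2.76 and −2.39 in 5Mel, −1.27, −1.11 and −0.90 in H, and −0.97, −1.04 and −1.02 in 5MelH. Control, H and 5MelH lay between −1.40 and −0.90 and the 5Mel arrays alone lay below, with a difference of 1.30 (SE 0.20, adjusted p = 0.0263 in limma). Of the 20 phosphate-starvation genes, *PHO84* was the one called, beside 0.145% of all genes, and 3 were higher at an unadjusted p under 0.05, beside 5.66%.

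Other antioxidant genes were not called. In the whole list of 39, 5 genes were higher at an unadjusted p under 0.05, *GPX2* included, and 0 lower, beside 5.66% and 3.92% of all genes. The median difference was 0.09, and 14 of the 39 were negative, down to −0.48. *TRX2*, the stress-induced thioredoxin, was at 3.04, 2.90 and 2.73 in Control, 2.64, 2.62 and 2.34 in 5Mel, 3.86, 3.84 and 3.86 in H, and 4.24, 4.07 and 4.08 in 5MelH. Both pairs of groups were free of overlap, 5Mel below Control and 5MelH above H, and the difference was 0.63 (SE 0.14, adjusted p = 0.153 in limma). *SRX1* had a difference of 0.90 (SE 0.35, adjusted p = 0.434).

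The respiratory chain lists held 2 called genes, *COX5A* and *NDE1*. *COX5A*, the aerobic isoform of subunit V of cytochrome c oxidase, was at 1.77, 1.80 and 1.64 in Control, 1.31, 1.20 and 1.12 in 5Mel, 1.90, 1.85 and 1.91 in H, and 2.16, 2.09 and 2.01 in 5MelH. The effect was −0.52 without stress and 0.20 with it (95% interval 0.04 to 0.36), neither pair of groups overlapped, and the difference was 0.72 (SE 0.10, adjusted p = 0.0177 in limma). *NDE1*, the mitochondrial NADH dehydrogenase that takes electrons from cytosolic NADH, was at 1.37, 1.43 and 1.27 in Control, 0.73, 0.56 and 0.60 in 5Mel, 2.40, 2.37 and 2.36 in H, and 2.24, 2.28 and 2.32 in 5MelH. The effect was −0.73 without stress and −0.10 with it (95% interval −0.24 to 0.05), a difference of 0.63 (SE 0.09, adjusted p = 0.0216 in limma).

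Most members of complexes III and IV were not called. All 8 measured nuclear subunits of complex IV had a positive difference, with a median of 0.49 beside 0.02 over all genes. At an unadjusted p under 0.05, 7 of them were higher, *COX5A* included, beside 5.66% of all genes. Their median effect was −0.34 without stress and 0.18 with it. In complex III, 8 of 9 nuclear subunits were higher at that p and 0 lower, the median difference was 0.44, and the median effects were −0.40 and 0.10. *RIP1*, the Rieske iron-sulfur subunit, was at 0.32, 0.20 and 0.17 in Control, −0.18, −0.45 and −0.46 in 5Mel, 0.54, 0.52 and 0.54 in H, and 0.79, 0.56 and 0.56 in 5MelH. Its difference of 0.70 (SE 0.13) and that of *QCR6*, 0.44 (SE 0.08), missed the threshold (adjusted p = 0.0666 and 0.0615 in limma).

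The 15 nuclear ATP synthase genes had 7 members higher at an unadjusted p under 0.05 and a median difference of 0.23. This count and the next ones at that p stand beside 5.66% of all genes higher and 3.92% lower. In complex II the median was 0.23, with 1 of 10 genes higher and 1 lower. Cytochrome c and the dehydrogenases that feed the chain had a median of 0.41, with 6 of 13 higher, *NDE1* included, and 1 lower. *CYC1*, the aerobic cytochrome c, was at 2.74, 2.77 and 2.66 in Control, 2.05, 2.00 and 2.33 in 5Mel, and 3.46 to 3.68 in the stressed arrays, a difference of 0.58 (SE 0.13, adjusted p = 0.153 in limma). Among 8 genes of the mitochondrial genome, 0 had an unadjusted p under 0.05, and the median difference was 0.16. Of 23 complex IV assembly genes, 1 was higher at that p and 0 lower, near the shares among all genes. Their median was 0.14.

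Hypoxic genes known to be repressed by Rox1 formed a list that includes the called *HEM13* and *ANB1*. Of its 11 genes, 8 were lower at an unadjusted p under 0.05, these 2 among them, and 0 higher. The shares of all genes were 3.92% lower and 5.66% higher. The median difference was −0.53, with median effects of 0.50 without stress and 0.04 with it. *COX5B*, the hypoxic isoform that takes the place of *COX5A*, was at −2.01, −1.87 and −1.82 in Control, −0.93, −1.40 and −1.12 in 5Mel, and −3.06 to −2.88 in the 6 stressed arrays. The difference was −0.66 (SE 0.15), against 0.72 for *COX5A*, and was not called (adjusted p = 0.165 in limma). *FET4*, a low-affinity iron and copper transporter, was at −2.43, −2.57 and −1.94 in Control, −1.06, −1.10 and −1.36 in 5Mel, and −4.53 to −4.29 under stress, a difference of −1.08 (SE 0.21, adjusted p = 0.0781). *ANB1* and *CYC1*, which are neighbours in the genome, had differences of −1.04 and 0.58.

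The other heme and oxygen lists had few called members. *HEM14*, the step of heme synthesis after *HEM13*, had a difference of −0.51 (SE 0.10) and was not called (adjusted p = 0.0892 in limma). For *HAP1*, the heme-responsive activator, the effects were 0.52 without stress and −0.04 with it, a difference of −0.56 (SE 0.14, adjusted p = 0.204). In the DAN/TIR list, 3 of the 7 genes well above background on all 12 arrays were lower at an unadjusted p under 0.05. These were *TIR1*, *TIR4* and *DAN4*, beside 3.92% of all genes lower. The median over all 8 genes, *DAN1* included, was −0.78 relative to all genes, and it was −0.42 without 5Mel replicate 3 and −0.51 within slide 1. Of 12 heme and oxygen regulators, 4 were lower at that p, *UPC2* included, and 0 higher, beside 3.92% and 5.66% of all genes. Their median was −0.19.

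**Figure D3:**
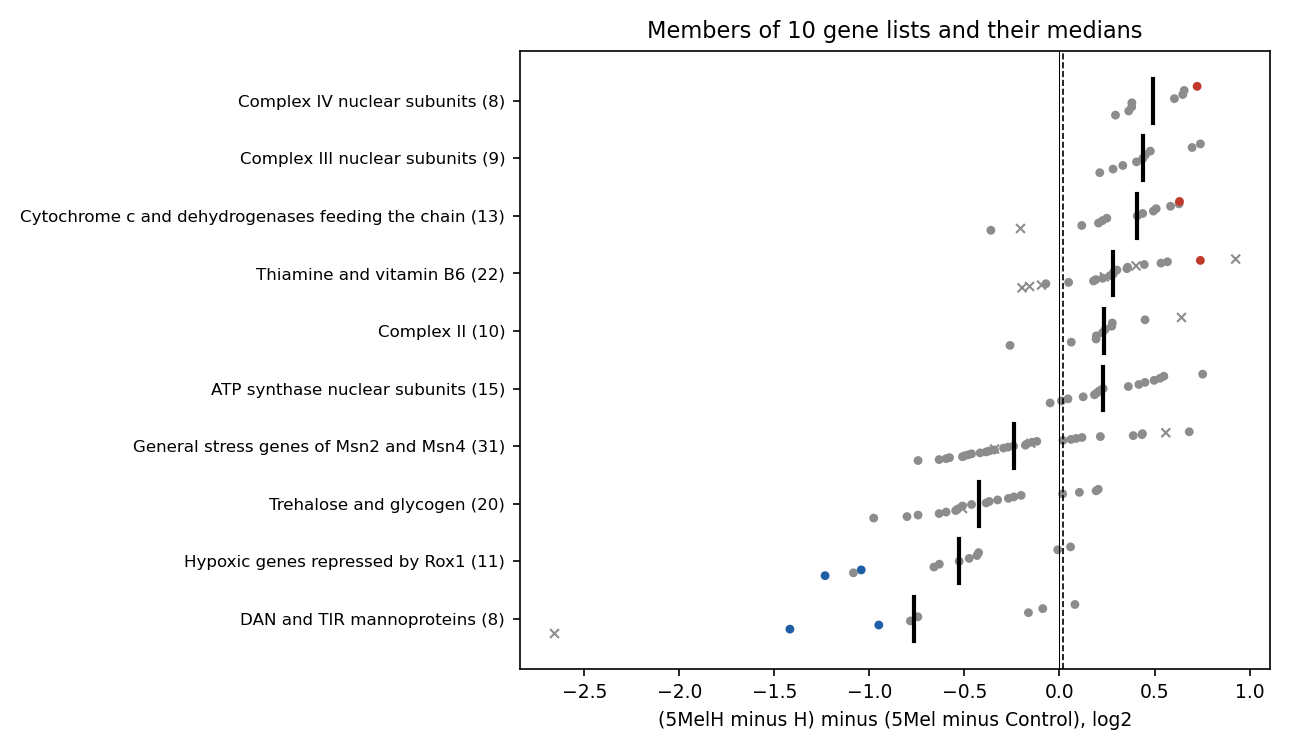
Difference between the melatonin effects (x axis, log2) for the members of the 10 gene lists whose median differed from 0 by at least 0.2; the number after each name is the genes measured. Circles are genes well above background on all 12 arrays and crosses the others, colour marks called genes (red higher, blue lower), thick bars are medians, and the dashed line is the all-gene median of 0.02. Respiratory chain lists lie to the right and hypoxic, DAN/TIR and trehalose lists to the left.

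Storage carbohydrate genes had no call. Of 20 trehalose and glycogen genes, 6 were lower at an unadjusted p under 0.05, beside 3.92% of all genes, 0 higher and 0 called, and the median was −0.42, with median effects of 0.44 without stress and 0.01 with it. *GSY1*, a glycogen synthase, was at −0.38, −0.47 and −0.71 in Control, 0.78, −0.14 and 0.37 in 5Mel, and −2.79 to −2.61 under stress. *GLC3*, the glycogen branching enzyme, was at −2.04, −1.87 and −1.66 in Control and −0.49, −1.66 and −0.44 in 5Mel. In both genes 5Mel replicate 2 lay nearest to Control, and the differences of −0.80 (SE 0.26) and −0.98 (SE 0.38) were not called (adjusted p = 0.336 and 0.434 in limma). Of the 31 general stress genes of Msn2 and Msn4, 3 were higher and 2 lower at an unadjusted p under 0.05, beside 5.66% and 3.92% of all genes. The 2 lower, *TPS1* and *NTH1*, were also among the 6 lower trehalose and glycogen genes. The general stress list had a median of −0.24. Relative to all genes that median was −0.26, and it was −0.09 without 5Mel replicate 1, −0.45 without 5Mel replicate 2, −0.62 within slide 1 and −0.04 within slide 2.

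In the following lists the counts at an unadjusted p under 0.05 stand beside 5.66% of all genes higher and 3.92% lower. Ribosome biogenesis genes had a median difference of 0.14, and 18 of 113 were higher and 1 lower. For mitochondrial ribosome genes the median was 0.13, with 10 of 69 higher, and for cytosolic ribosomal proteins it was −0.06, with 1 of 137 higher and 2 lower, both below the share among all genes. The thiamine and vitamin B6 list had a median of 0.28, with 6 of 22 higher, of which *PET18* was called. *PET18*, related to proteins of thiamine metabolism, was at −2.08, −2.04 and −2.14 in Control, −2.59, −2.59 and −2.63 in 5Mel, −1.67, −1.73 and −1.71 in H, and −1.30, −1.61 and −1.51 in 5MelH. Neither pair overlapped, and the difference was 0.74 (SE 0.11, adjusted p = 0.0254 in limma). Among the other 35 of the 45 lists, medians lay between −0.19 and 0.17.

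The remaining called genes were *ATF1* and 6 open reading frames that carry no gene name in the table used. *ATF1*, the alcohol acetyltransferase that forms acetate esters and that oxygen and unsaturated fatty acids repress, was at −0.70, −0.74 and −0.62 in Control, −0.02, 0.07 and 0.08 in 5Mel, −1.33, −1.31 and −1.32 in H, and −1.29, −1.26 and −1.22 in 5MelH. The difference was −0.66 (SE 0.08, adjusted p = 0.0165 in limma), and the spread within each group was at most 0.12. *YHR022C* had a difference of −1.21 (SE 0.21), *YJR149W* of −0.96 (SE 0.15) and *YLR257W* of −0.75 (SE 0.12), with adjusted p of 0.0460, 0.0263 and 0.0330. *YOR338W* had a difference of 0.90 (SE 0.12), *YFL051C* of 0.67 (SE 0.11) and *YLL053C* of 0.57 (SE 0.09), with adjusted p of 0.0177, 0.0302 and 0.0330.

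*YOR338W* was dim, at −4.66, −4.81 and −4.51 in Control, −5.75, −5.58 and −5.80 in 5Mel, −5.78, −5.65 and −5.70 in H, and −5.80, −5.86 and −5.89 in 5MelH. The 5Mel arrays lay within the range of the 6 stressed arrays or above it. With normexp background correction its difference was 0.49 and that of the similarly dim *YFL051C* was 0.23. The genes next to the called ones on the chromosome gave counts too small to read against the 5.66% of all genes higher and 3.92% lower. Of 18 measured neighbours of genes called higher 2 were higher at an unadjusted p under 0.05 and 0 lower, and of 19 neighbours of genes called lower 2 were lower and 2 higher. An adjacent gene that was not measured, as beside *YLR257W*, was left out and not replaced by the next gene along. Those in the same direction, named because of their values, were *AQY2* beside *YLL053C* (0.44, adjusted p = 0.298), *TEA1* beside *YOR338W* (0.58, adjusted p = 0.153), and *DAN1* and *BAT2* on either side of *YJR149W*.

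In the 25MelH arrays the 21 genes stayed near their levels in H. The mean of 25MelH minus that of H had a median size of 0.10 and was at most 0.33, in *CUP1-1*, whereas the 5Mel effect had a median size of 0.95. *HEM13* was at −0.67, −0.78 and −0.76 in 25MelH, and *CTR1* at 1.53, 1.46 and 1.49. These values share the H arrays with the difference and were not tested.

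The calls depended on single arrays and on the model of the spread. All 21 genes kept their sign in each of the 27 alternative fits, and in each of the 12 fits without 1 array all 21 had an unadjusted p under 0.05. The adjusted p was less stable: without H replicate 1, H replicate 3 or 5MelH replicate 1 the count of called genes was 0, without 5Mel replicate 2 it was 95, and without Control replicate 1, Control replicate 2, H replicate 2 and 5MelH replicate 3 it was 1, 3, 3 and 1. With the replicate number as a block within each stress level, 0 genes were called, and the 21 had adjusted p of 0.0519 to 0.234 in limma. With the slide as a block 8 were called, *GPX2*, *CTR1*, *YOR338W*, *COX5A*, *ATF1*, *UPC2*, *DIP5* and *ANB1*, and within either slide 0 were called. Among the 21 genes the slides differed most in *DUR3*, with −0.64 within slide 1 and −1.23 within slide 2, and then in *GPX2*, with 1.36 and 0.90. Scaling to spike-in probes raised the difference of all genes by 0.42 at the median and 8 genes were then called, all higher, 4 of them among the 21. This scaling adds the same amount to every gene, so it cannot change values relative to all genes. List medians relative to all genes also moved by over 1.5 times: trehalose and glycogen from −0.44 to −0.73 without 5Mel replicate 2, −0.83 within slide 1 and −0.21 within slide 2, the Rox1 list from −0.55 to −0.28 within slide 2, complex IV from 0.47 to 0.30 within slide 2, complex II from 0.21 to −0.04 within slide 1 and 0.37 within slide 2, ATP synthase from 0.21 to 0.32 without 5Mel replicate 3, and thiamine and vitamin B6 from 0.26 to 0.16 with normexp. What part slide, scaling and background have in the calls was not tested.

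**Figure D4:**
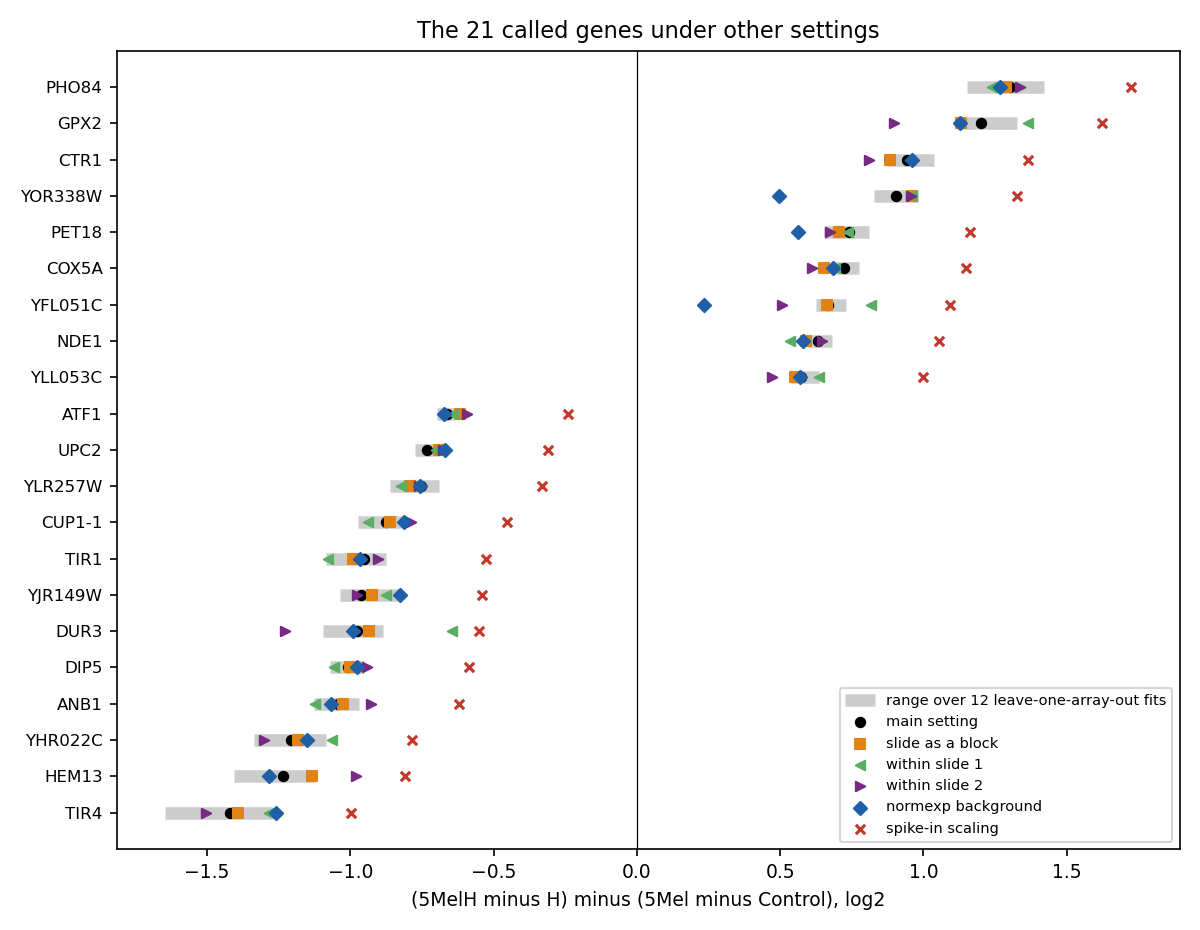
Differences of the 21 called genes (x axis, log2) in the main setting (black circles), with the slide as a block, within slide 1 and slide 2, with normexp background correction and with spike-in scaling; grey bars span the 12 fits that each leave out 1 array. No value crosses 0, spike-in scaling moves each gene to the right by the same amount, and *YFL051C* and *YOR338W* shrink with normexp.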

How the data were processed

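RNA of QA23 was labelled with Cy3 and hybridised to 1 array per sample. For each array the authors deposited a scanner file made with Feature Extraction 12.0.1.1, in which the processed signal is a linear intensity after background subtraction. They also deposited a matrix on the log2 scale, normalized at the 75th percentile, and median-centred per probe. By comparison of values, 6 of its 15 columns equal the scanner file of their own sample and 9 that of another (r of at least 0.9997 with the table they equal and at most 0.902 with any other). It served only in an alternative fit, each column being assigned to the sample of the matching scanner table.

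Outlier spots (2 to 84 per array) were left out, 2 spots per probe were averaged as log2 values, and each array was scaled to its 75th percentile by subtraction on the log2 scale. This percentile lay between 4193 and 5905 intensity units in Control and 5Mel and between 2492 and 3571 in H and 5MelH. Where a gene had more than 1 probe, the brightest on average was used, so 6256 probes gave 6224 genes, 5748 of them named through the RefSeq names of assembly R64. No spot was saturated, and 5334 genes were well above background on all 12 arrays. The planned normexp alternative used median spot signals, since the tables used here hold no mean signals.

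A single limma 3.58.1 fit (R 4.3.3, lmFit and eBayes, two-sided) on 12 arrays with a mean per group gave the difference and both effects, with 95% intervals. Adjustment was by Benjamini-Hochberg over all genes, with a threshold of 0.05 and no fold threshold. The code was tested on simulated data. Precision is limited by 3 arrays per group. Input was parsed with the R packages jsonlite (2.0.0) and data.table (1.17.8).

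Deviations from the group means were correlated between arrays of the same number within a stress level (r of 0.106 to 0.279 over 3 pairs of Control and 5Mel, and 0.143 to 0.307 over 3 pairs of H and 5MelH), but in only 3 of 12 pairs across stress levels was r over 0.1, and so it was in 9 of 36 pairs with different numbers. The pairing within stress levels comes from these correlations alone, as no source states it. By slide, r was over 0.1 in 12 of 26 pairs on the same slide and in 6 of 28 pairs on different slides. Within a stress level the arrays numbered 1 shared a slide, as did those numbered 3, while those numbered 2 did not. Slide and number are thus mixed in part, and the share of each was not tested.

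Named genes are the called ones measured on all 12 arrays, up to 12 per direction, and up to 4 members per list with the smallest p. The contrast and the 45 gene lists were chosen with earlier results of these data known, so lists were described by counts and medians and not tested.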

Additional observations from a re-analysis of the deposited data

Results flagged for a closer look

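The 21 genes whose melatonin effect passed the test of a difference between stressed and unstressed cells deserve a second look. The differences, on the log2 scale and as the effect with stress minus that without it, were 1.30 for *PHO84*, 1.20 for *GPX2*, 0.94 for *CTR1*, 0.90 for *YOR338W*, 0.74 for *PET18*, 0.72 for *COX5A*, 0.67 for *YFL051C*, 0.63 for *NDE1* and 0.57 for *YLL053C*. In the other direction they were −0.66 for *ATF1*, −0.73 for *UPC2*, −0.75 for *YLR257W*, −0.87 for *CUP1-1*, −0.95 for *TIR1*, −0.96 for *YJR149W*, −0.97 for *DUR3*, −1.01 for *DIP5*, −1.04 for *ANB1*, −1.21 for *YHR022C*, −1.23 for *HEM13* and −1.42 for *TIR4*. Groups of 3 arrays are too small for a test of single outlying arrays.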

How the results depend on the processing

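The count of genes with a different melatonin effect was 21 (9 higher, 12 lower). It was 32 (14 and 18) after quantile normalization, 35 (13 and 22) with an intensity trend and robust variance, 32 (14 and 18) with all 15 arrays sharing the spread, 8 (8 and 0) with spike-in scaling, 8 (4 and 4) with the slide as a block, 0 within slide 1, 0 within slide 2 and 596 at an unadjusted p under 0.05. With normexp it was 25 (7 and 18), where the share of higher calls moved. Paired by replicate number it was 2 with the replicate block over all groups and 0 with the replicate block within stress level. Leaving out 1 array gave 0 to 95.

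Without stress, 132 genes were called in 5Mel against Control. The count was 203 after quantile normalization, 45 (7 higher, 38 lower) with spike-in scaling, 264 with trend and robust variance, 243 among genes well above background on all arrays, 230 with all 15 arrays, 23 with only its 6 arrays, 0 within each slide, 1066 at an unadjusted p, 101 with the replicate block over all groups, 72 with the replicate block within stress level, and 58 to 513 without 1 array. With stress it was 0 in every setting run but the unadjusted p, which gave 352.

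The alternatives not listed here kept these 3 counts within 1.5 times. For the 21 genes 286 of the 567 alternative values stayed past the threshold and 281 did not, and 0 changed sign. Lists with a median of at least 0.2 in size kept its sign relative to all genes in all 27 alternatives, except complex II, which had −0.04 within slide 1. The cause of these changes was not tested. Signals near background limit what can be said of dim genes such as *DAN1*.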
